A study of Mus musculus with 6 samples.

Results

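The expression of 10 genes that mark epithelial or mesenchymal cell identity was examined in MLE12 cells, a mouse lung epithelial line. These were the adhesion genes *Cdh1*, *Cdh2* and *Epcam*, the keratin genes *Krt7*, *Krt8* and *Krt18*, *Vim*, *Fn1*, and the transcription factor genes *Zeb1* and *Snai2*. They were chosen by name, and all 10 were among the 54532 genes of the deposited count table. MLE12 cells descend from a lung tumor of a mouse in which the surfactant protein C promoter drove a viral large T antigen. All samples therefore come from 1 immortalized line, whose strain the labels give as C57BL/6J. Control cells received a negative-control lentivirus (Ctrl shRNA) at an MOI of 50, that is, infectious particles per cell. The methods call its vector empty but also list a sequence for it. Knockdown cells received an Idh3α shRNA and a Slc25a1 shRNA lentivirus together, each at an MOI of 50. By these stated doses, their total lentivirus dose was larger. Both groups were grown in HITES medium with serum, the virus was washed off after 16 h, and 80 h of further culture followed. The methods do not say when RNA for sequencing was taken. RNA-seq libraries of 3 samples per group were compared. The labels do not say whether the samples were separate cultures, so p-values measure only the spread between these samples.

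Epithelial cells are held together by E-cadherin (*Cdh1*) and EpCAM and carry keratin filaments, which form only when a type II keratin such as KRT8 pairs with a type I keratin such as KRT18. In the epithelial-mesenchymal transition (EMT), cells lose these proteins and gain N-cadherin (*Cdh2*), vimentin filaments and a fibronectin matrix. ZEB1 and SLUG (*Snai2*) are repressors that bind E-box letters in the promoters of epithelial genes, *Cdh1* being the classical target. Simple epithelia, that of the alveolus included, carry KRT8 with KRT18, and cultured epithelial lines often show features of both states.

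The libraries held 27273502 to 28535653 counts in the Ctrl shRNA group and 27715153 to 28112519 in the knockdown group. Values are given as CPM, the count of a gene per unit of library size after TMM scaling, which corrects for the composition of each library. Ctrl shRNA replicate 2 stood apart from the other 5 libraries. Counts were found on 16681 of its genes against 19902 to 23147 elsewhere, and it took 6.49% of its counts from mitochondrially encoded genes against 1.57% to 1.80%, and had a TMM factor of 0.711 against 1.05 to 1.09. The members' results are therefore given with and without it. *Idh3a* was at 79.8, 137 and 93.0 CPM in the controls, against 58.5, 57.9 and 55.5 CPM with knockdown. *Slc25a1* was at 103, 98.7 and 108 CPM, against 68.9, 69.6 and 63.0 CPM. Both targeted mRNAs were below every control in all 3 knockdown samples. Their adjusted p was 0.254 and 0.104 with all samples and 0.0142 and 0.00649 without Ctrl shRNA replicate 2 (edgeR's quasi-likelihood F-test, Benjamini-Hochberg adjusted across the table).

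The cell type labelled was checked against marker genes. Of 15 lung epithelial markers, 9 reached 1 CPM in at least 1 sample. The lineage factor gene *Nkx2-1* was at 324 to 343 CPM in the controls and 277 to 302 CPM in the knockdown samples, and the lipid transporter gene *Abca3* was at 110 to 141 CPM. *Sftpc*, which encodes surfactant protein C, was at 44.1, 97.3 and 50.9 CPM in the controls, against 35.9, 28.5 and 27.2 CPM with knockdown. The groups did not overlap for 5 of the 15 markers, all 5 among the 10 tested. Of these, *Nkx2-1* and *Sftpc* were lower with knockdown and *Etv5*, *Foxa2* and *Napsa* higher. Among all genes tested, 10.7% were lower and 14.7% higher without overlap. *Etv5* was at 23.1 to 27.6 against 36.5 to 39.5 CPM, *Foxa2* at 59.5 to 65.4 against 67.9 to 77.3 CPM, and *Napsa* at 0.453 to 0.759 against 1.18 to 1.38 CPM. *Sftpd* had 0 counts in every library, and *Sftpa1* had 0 in every control. The summed level of the lung epithelial markers was 810 to 837 CPM in the controls and 747 to 809 CPM in the knockdown samples. All 4 mesothelial markers were also above 1 CPM, with sums of 449 to 525 and 506 to 531 CPM, led by *Msln* and *Upk3b*. The marker lists of other cell types are given below beside the results they move with.

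The MLE12 samples held transcripts of some epithelial and some mesenchymal genes, while others of each kind were near the counting limit. To compare genes, each CPM value was divided by the gene's length in kilobases. On this scale of CPM per kilobase, the control means ran from 177 for *Vim* through 138 for *Krt8*, 39.1 for *Fn1*, 15.6 for *Cdh1*, 5.93 for *Cdh2*, 4.13 for *Zeb1*, 1.80 for *Epcam* and 1.3 for *Krt7* to 0.117 for *Snai2* and 0.0911 for *Krt18*. Among the control samples, neighbors in this order overlapped only for *Vim* and *Krt8* and for *Snai2* and *Krt18*, with or without replicate 2. In the knockdown samples *Epcam* (1.33, 1.57 and 1.17 CPM per kilobase) and *Krt7* (1.10, 1.16 and 1.25) overlapped too. Set against the genes tested, *Vim* stood at percentile 97.9 of the control level per kilobase, *Krt8* at 97.4 and *Cdh1* at 74.3. At the other end, *Epcam* stood at 29.9, *Snai2* at 3.23 and *Krt18*, itself not among them, at 2.31. The length used is that of the deposited table, which joins all exons of a gene. With the longest coding transcript instead, an alternative chosen after seeing the data, *Vim* was at 384 CPM per kilobase and *Krt7* moved above *Epcam* (2.24 against 1.80), while the rest of the order was kept. In bulk RNA, fewer cells of a type and less RNA per cell cannot be told apart. These levels therefore do not say whether the same cells held both kinds of transcripts.

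**Figure D1:**
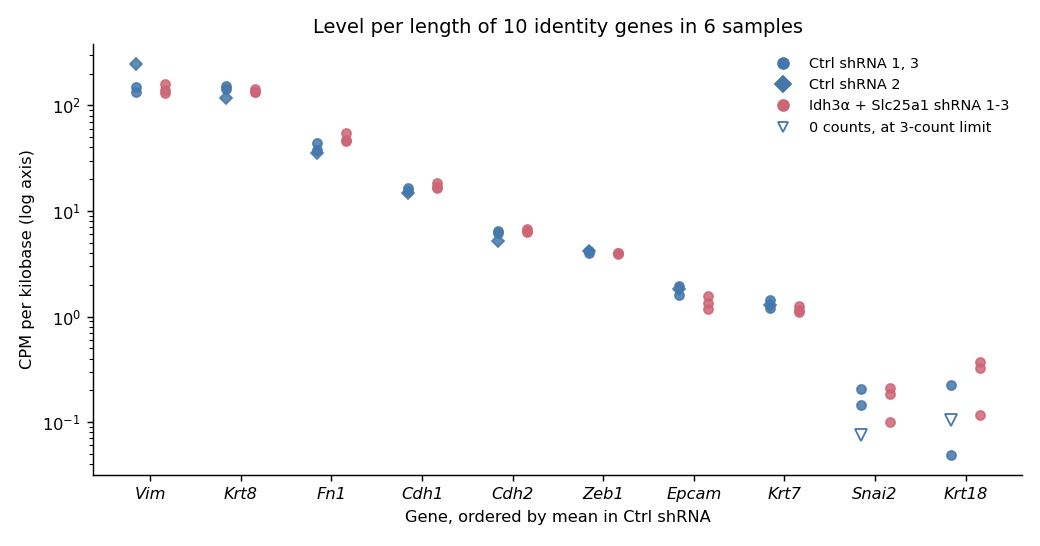
Level per length of the 10 identity genes. The vertical log axis gives CPM per kilobase, the horizontal axis the genes in the order of their Ctrl shRNA mean; each point is a sample, diamonds are Ctrl shRNA replicate 2, and open triangles mark a library with 0 counts at the level that 3 counts would give. *Vim* and *Krt8* lie above 100 CPM per kilobase in all 6 samples, and *Snai2* and *Krt18* lie under 1.

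None of the 10 genes passed the test between the groups. With all 6 samples, edgeR tested 9 of them, *Krt18* having too few counts, and 0 reached an adjusted p under 0.05, against 0.0653% of the 15307 genes in the fit. Before adjustment, 1 member (*Fn1*) was under 0.05, as were 14.1% of all genes. Log2 fold changes were positive for 4 of the 9 and negative for 5. Without Ctrl shRNA replicate 2, 10 members were tested and again 0 were called, against 1.79% of all genes, with 1 at an unadjusted p under 0.05 (19.9% of all genes). DESeq2 with all samples called 0 as well, against 2.71% of all genes, although it gave no adjusted p for *Krt18* and *Snai2*. Limma with sample quality weights called 1 member, *Fn1*, as higher, where it called 8.67% of all genes as higher. Every knockdown sample was above every control for *Cdh1* and *Fn1*, and below every control for *Epcam* and *Zeb1*. That is 2 members higher and 2 lower without overlap, with or without Ctrl shRNA replicate 2. Over all genes tested, 14.7% were higher and 10.7% lower without overlap (20.3% and 17.3% without that library). For a single gene, an exact permutation test of 3 samples against 3 cannot give a two-sided p below 0.1, the value reached by these 4 genes.

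**Figure D2:**
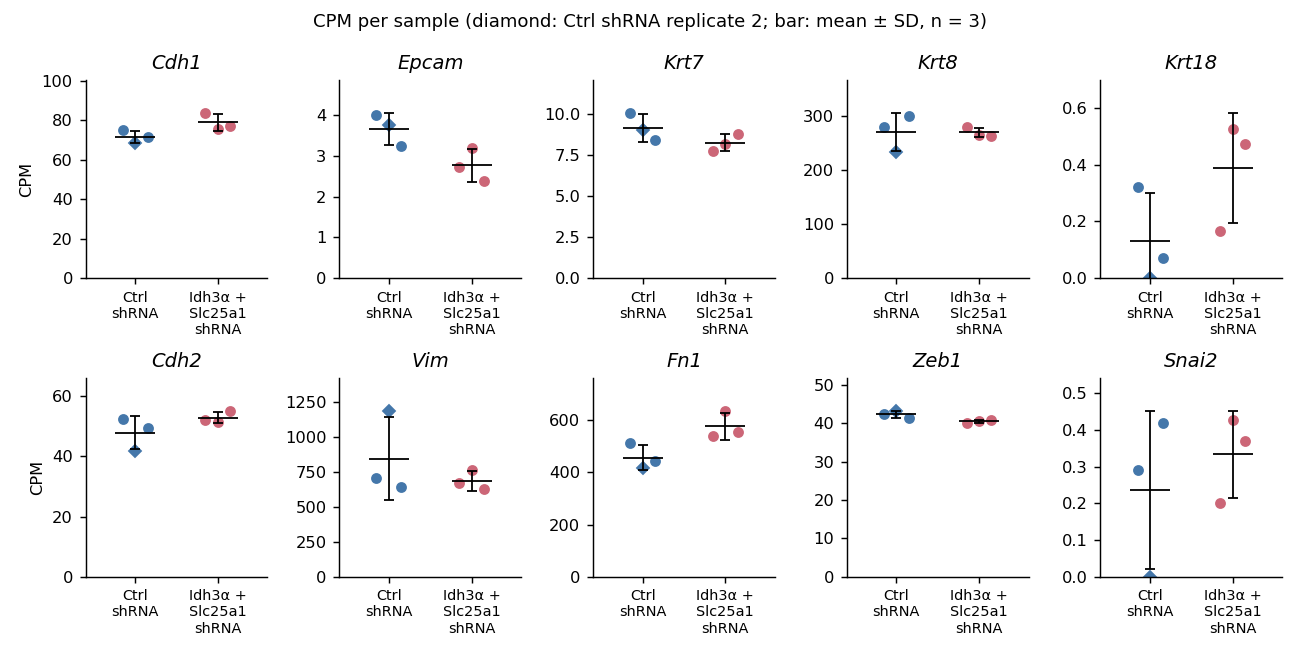
CPM of each of the 10 identity genes per sample, on linear axes that start at 0. Points are samples, diamonds are Ctrl shRNA replicate 2, and black bars are the mean ± SD (n = 3 per group). The groups are separate for *Cdh1*, *Epcam*, *Fn1* and *Zeb1*, and the *Vim* value of 1182 CPM in Ctrl shRNA replicate 2 lies above all other *Vim* values.

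*Cdh1* (ENSMUSG00000000303, chr8:106603351-106670246 of GRCm38, plus strand) encodes E-cadherin, the adhesion receptor of epithelial junctions. It was at 74.9, 68.4 and 71.4 CPM in control samples 1 to 3, against 83.8, 75.7 and 77.2 CPM in knockdown samples 1 to 3. The groups did not overlap, but the lowest knockdown sample lay close to the highest control. The mean was 71.6 ± 3.22 CPM (SD, n = 3) in controls and 78.9 ± 4.29 CPM (SD, n = 3) in knockdown cells. The log2 fold change was 0.14 (standard error 0.076, 95% interval -0.044 to 0.33), with an adjusted p of 0.393 from edgeR with Benjamini-Hochberg adjustment. Leaving out Ctrl shRNA replicate 2 gave 0.10 (95% interval -0.066 to 0.27, adjusted p = 0.478 from edgeR). Over 15 alternatives the adjusted p of *Cdh1* ran from 0.10 to 0.720.

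*Epcam* (ENSMUSG00000045394, chr17:87635979-87651106, plus strand) encodes the epithelial cell adhesion molecule. Its level was low, at 4.01, 3.75 and 3.24 CPM in the controls, against 2.72, 3.20 and 2.39 CPM with knockdown. These values rest on 71 to 124 counts per library. All knockdown samples were below all controls, although the highest knockdown value and the lowest control value differed little. The mean was 3.66 ± 0.388 CPM (SD, n = 3) against 2.77 ± 0.404 CPM (SD, n = 3). The log2 fold change of -0.40 (standard error 0.20, 95% interval -0.88 to 0.075) had an adjusted p of 0.375 from edgeR with Benjamini-Hochberg adjustment. It was also -0.40 without Ctrl shRNA replicate 2 (adjusted p = 0.320 from edgeR). Among the 9 tested members, *Epcam* thus had the most negative estimate with all samples, and the interval included 0.

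The starts of member genes were searched for the E-box letters that ZEB1 and SLUG are known to bind, CAGGTG or its reverse complement CACCTG, on both strands. RefSeq windows of 300 bases (250 before and 50 after the annotated start, GRCm38.p6) were examined for 4 members, *Epcam*, *Krt7*, *Krt18* and *Vim*. The letters were found in 3 of the 4, all but *Vim*, and in 20.2% of all 32851 windows. The other members, *Cdh1* included, were not searched, so 3 of 4 is no measure of the members as a set. *Epcam* held 2 copies, 187 and 19 bases before its start, and *Krt18* held 1 copy, 214 bases before its RefSeq start. The bases ahead of these genes are shown because they carry the letters, which are in capitals. The *Epcam* stretch is chr17:87635729-87635978 and the *Krt18* stretch chr15:102027966-102028179, both on the plus strand, 5′ to 3′, and neither overlaps an exon of GENCODE M21.
Epcam: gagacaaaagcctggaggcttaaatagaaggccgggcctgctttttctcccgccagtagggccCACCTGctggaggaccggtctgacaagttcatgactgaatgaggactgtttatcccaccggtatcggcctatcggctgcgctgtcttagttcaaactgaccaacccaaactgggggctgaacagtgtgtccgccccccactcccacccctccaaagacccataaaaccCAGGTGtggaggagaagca
Krt18: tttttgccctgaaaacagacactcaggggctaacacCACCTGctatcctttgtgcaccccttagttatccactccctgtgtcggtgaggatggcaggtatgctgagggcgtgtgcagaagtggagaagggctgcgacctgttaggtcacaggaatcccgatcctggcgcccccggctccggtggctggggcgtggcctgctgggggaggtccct
*Krt7* held 1 copy, 44 bases before its RefSeq start, and 30 bases around it are shown. This stretch, chr15:101412347-101412376 on the plus strand, lies in exon 2 of a noncoding *Krt7* transcript.
Krt7: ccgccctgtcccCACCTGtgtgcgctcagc
These matches describe letters only, and binding was not measured.

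The 3 keratin genes differed far more from each other than between the groups. *Krt8* (ENSMUSG00000049382, chr15:101996698-102004482, minus strand), the type II keratin of simple epithelia, was at 279, 232 and 300.4 CPM in the controls. It was at 279.8, 264 and 264 CPM in the knockdown samples. Ctrl shRNA replicate 2 was lowest and replicate 3 highest of all 6, so the knockdown samples lay inside the control range. Its log2 fold change was -0.0081 (95% interval -0.28 to 0.27, adjusted p = 0.976 from edgeR with Benjamini-Hochberg adjustment). With Ctrl shRNA replicate 2 left out it was -0.12 (95% interval -0.27 to 0.040, adjusted p = 0.378 from edgeR), and the sign with all samples turned under 7 alternatives. Of its 50-base stretches, 29.7% also occur in other annotated genes, mainly the pseudogene *Krt8-ps*. That copy held 7 to 19 counts per library against at least 4591 for *Krt8*, and how the counting treated shared reads is not given in the sources used here.

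*Krt18* (ENSMUSG00000023043, chr15:102028180-102032027, plus strand), the type I partner of *Krt8*, was near the counting limit. It had 10, 0 and 2 counts in the controls and 5, 16 and 14 counts in the knockdown samples, or 0.323, 0 and 0.0697 CPM and 0.168, 0.527 and 0.472 CPM. The groups overlapped, and the 0 of Ctrl shRNA replicate 2 allows up to 0.152 CPM (3 counts). Summed over each group, 12 counts gave 0.151 CPM (95% Poisson interval 0.0781 to 0.264) in controls and 35 counts gave 0.390 CPM (0.272 to 0.542) in knockdown cells. Such intervals and limits cover counting error only. With all samples *Krt18* did not pass the count filter. Without a filter its log2 fold change was 1.47 (adjusted p = 0.614 from edgeR with Benjamini-Hochberg adjustment). In the fit without Ctrl shRNA replicate 2 its log2 fold change was 0.94 (95% interval -0.77 to 2.65, adjusted p = 0.517 from edgeR with Benjamini-Hochberg adjustment). Leaving out Ctrl shRNA replicate 1 instead gave 3.15 (adjusted p = 0.185 from edgeR). Of the 50-base stretches of *Krt18*, 0.72% occur in other annotated genes, and copies outside the annotation were not searched.

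The ratio of *Krt8* to *Krt18* per kilobase was 635 and 3162 in Ctrl shRNA replicates 1 and 3 and 1222, 368 and 410 in the knockdown samples. No ratio was formed for Ctrl shRNA replicate 2, where *Krt18* had 0 counts. The values scattered without order between the groups, and *Krt8* exceeded *Krt18* by at least 368-fold wherever the ratio could be formed.

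*Krt7* (ENSMUSG00000023039, chr15:101411043-101430313, plus strand), another type II keratin of simple epithelia, was at 10.1, 9.01 and 8.40 CPM in the controls, against 7.76, 8.17 and 8.80 CPM with knockdown. The groups overlapped. Its log2 fold change was -0.15 (95% interval -0.47 to 0.16, adjusted p = 0.553 from edgeR with Benjamini-Hochberg adjustment), and -0.18 without Ctrl shRNA replicate 2 (adjusted p = 0.502 from edgeR). With scaling to library size only, which moved the median of all genes to 0.16, it was 0.017.

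To place the 3 keratins in their family, all 49 protein-coding keratin genes of the table were examined. Of these, 18 had 0 counts in every library and 8 were tested. *Krt19*, the type I keratin that lacks a tail domain, led the family with 423 ± 44.8 CPM per kilobase (SD, n = 3) in controls and 475 ± 24.4 CPM per kilobase (SD, n = 3) in knockdown cells. It made up 73.5% of the summed control level per kilobase of all keratins. The highest type II keratin was *Krt8*, and the type I keratin that accompanied it at a high level in these cells was *Krt19*, with *Krt18* at 0.0911 CPM per kilobase. *Krt80* was the third, at 9.26 CPM per kilobase in controls and 12 in knockdown cells. By edgeR with Benjamini-Hochberg adjustment, 0 of the 8 tested keratins passed, beside 0.0653% of all genes, and 0 of 9 without Ctrl shRNA replicate 2, beside 1.79%. At those shares the counts say nothing particular about keratins.

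*Cdh2* (ENSMUSG00000024304, chr18:16588877-16809246, minus strand) encodes N-cadherin, which replaces E-cadherin when cells become mesenchymal. It was at 52.3, 41.8 and 49.5 CPM in the controls, against 52.2, 51.5 and 55.0 CPM with knockdown. Ctrl shRNA replicate 2 was the lowest of the 6, and the groups overlapped. The estimated log2 fold change was 0.14 (95% interval -0.10 to 0.39, adjusted p = 0.484 from edgeR with Benjamini-Hochberg adjustment). Leaving out Ctrl shRNA replicate 2 gave 0.046 (95% interval -0.12 to 0.21, adjusted p = 0.768 from edgeR). Among 23 cadherin genes, 6 were tested and 0 were called in either fit, beside 0.0653% and 1.79% of all genes. *Cdh1* made up 41.9% of their summed control level per kilobase and was followed by *Cdh24* at 14.1 and *Cdh2* at 5.93 CPM per kilobase.

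The balance of E-cadherin to N-cadherin transcripts was taken as the ratio of *Cdh1* to *Cdh2* per kilobase. It was 2.52, 2.89 and 2.54 in the controls and 2.83, 2.59 and 2.48 in the knockdown samples. The groups overlapped, with means of 2.65 ± 0.205 and 2.63 ± 0.180 (SD, n = 3 each). The difference on the log2 scale was -0.010 (two-sided exact permutation test, p = 0.8) and 0.053 without Ctrl shRNA replicate 2. *Cdh1* was above *Cdh2* in each of the 6 samples, by 2.48 to 2.89 times with the deposited gene length and by 1.53 to 1.79 times with coding transcript length, an alternative chosen after seeing the data.

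*Vim* (ENSMUSG00000026728, chr2:13573927-13582826, plus strand) encodes vimentin, the intermediate filament of mesenchymal cells. It was at 703, 1182 and 639 CPM in the controls, against 669, 759 and 623 CPM with knockdown. Ctrl shRNA replicate 2 was far above the other 5, which overlapped. The control mean was 842 ± 297 CPM (SD, n = 3), or 671 ± 44.9 CPM (SD, n = 2) without that library, against 684 ± 69.2 CPM (SD, n = 3) in knockdown cells. The estimated log2 fold change was -0.30 (95% interval -0.91 to 0.31, adjusted p = 0.548 from edgeR with Benjamini-Hochberg adjustment). With Ctrl shRNA replicate 2 left out it turned to 0.017 (95% interval -0.20 to 0.23, adjusted p = 0.938 from edgeR). The negative estimate therefore came from 1 library.

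The summed level of the fibroblast markers was high in Ctrl shRNA replicate 2, as was *Vim*. The sum of these 9 genes was 346 to 1235 CPM in controls and 317 to 345 CPM in knockdown cells. Nearly all of it was *Dcn*, which encodes the matrix proteoglycan decorin and was at 320, 1211 and 354 CPM in the controls, against 297, 318 and 300.4 CPM with knockdown. *Col3a1* and *Postn*, defining fibroblast genes, were at 0 in every library, and 3 of the 9 genes reached 1 CPM in any sample. Of the 9 genes, *Dcn*, *Lum* and *Thy1* were higher in that library than in the other 5, *Lum* at 0.709 CPM (0.0337 to 0.383 elsewhere) and *Thy1* at 0.658 CPM (0.139 to 0.355 elsewhere). *Pdgfra* was at 2.23 CPM there, the low end of the 6 samples, and *Col1a1* at 20.3 CPM, within their range. *Sftpc* was high in that library too, at 97.3 CPM. Of the leukocyte markers, *Ptprc*, *Adgre1* and *Itgam* had 0 counts in all libraries, and the list summed to 10.1 CPM in Ctrl shRNA replicate 2 against 5.39 to 6.80 CPM in the other controls and 7.08 to 7.45 CPM in knockdown cells, with *Cd14* at 8.15 CPM there. The sum of the 7 endothelial markers also peaked in that library, nearly all of it *Tek*. It was 46.8 CPM against 37.1 to 38.8 CPM in the other controls and 32.5 to 33.9 CPM in knockdown cells. Of the 7 genes, only *Tek* and *Vwf* were highest there. *Pecam1* and *Kdr* were at 0 there, against up to 0.628 and 0.396 CPM elsewhere, and *Emcn* was at 0 in every library. *Tek* was lower in every knockdown sample than in every control, at 31.5 to 32.3 against 36.0 to 45.8 CPM, as was *Dcn*. *Cd68*, a leukocyte marker, was higher in every knockdown sample (1.65 to 1.92 CPM in controls, 2.34 to 2.73 CPM with knockdown). So were *Pdgfra* (2.23 to 2.68 and 3.43 to 3.91 CPM) and the airway marker *Foxj1* (0.101 to 0.808 and 1.15 to 1.315 CPM). Among all genes tested, 10.7% were lower and 14.7% higher without overlap, so these single genes say nothing particular about a cell type. The summed level of the 6 airway markers was lowest in Ctrl shRNA replicate 2, at 44.1 CPM against 45.3 to 68.3 CPM elsewhere. Most of it was *Muc5b*, which was at 43.2 CPM in that library and lowest in knockdown sample 1, at 42.6 CPM. The part of other cells in the *Vim* value was not tested.

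The ratio of *Vim* to *Krt8* per kilobase was 1.04, 2.10 and 0.879 in the controls and 0.988, 1.19 and 0.975 in the knockdown samples. Apart from Ctrl shRNA replicate 2, the ratio lay between 0.879 and 1.19 with the deposited gene length. With coding transcript length it was higher, at 1.90 to 2.56 in the same 5 samples and 4.54 in Ctrl shRNA replicate 2. The difference between groups on the log2 scale was -0.25 (two-sided exact permutation test, p = 0.8), and 0.13 without Ctrl shRNA replicate 2.

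**Figure D3:**
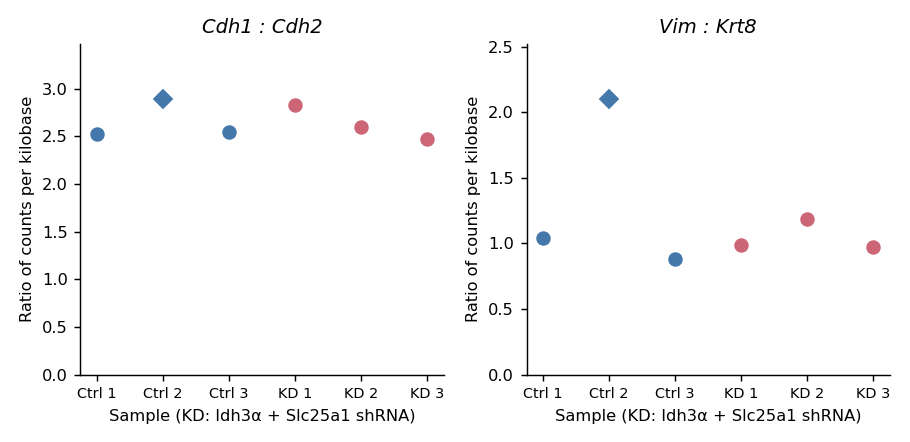
Ratio of *Cdh1* to *Cdh2* (left) and of *Vim* to *Krt8* (right) in each sample, as ratios of counts per kilobase on linear axes that start at 0. KD stands for Idh3α shRNA + Slc25a1 shRNA, and the diamond is Ctrl shRNA replicate 2. The cadherin ratio stays between 2.48 and 2.89, and the *Vim* to *Krt8* ratio is 2.10 in Ctrl shRNA replicate 2 and 0.879 to 1.19 elsewhere.

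*Fn1* (ENSMUSG00000026193, chr1:71585520-71653200, minus strand) encodes fibronectin, the matrix protein that mesenchymal and wounded epithelial cells lay down. It was at 511, 416 and 444 CPM in the controls, against 540.2, 635 and 554 CPM with knockdown. All knockdown samples were above all controls. The mean was 457 ± 48.8 CPM (SD, n = 3) against 576 ± 51.1 CPM (SD, n = 3), the most positive difference in CPM among the members. The log2 fold change was 0.34 (standard error 0.12, 95% interval 0.039 to 0.63, unadjusted p = 0.0323 and adjusted p = 0.346 from edgeR with Benjamini-Hochberg adjustment). Leaving out Ctrl shRNA replicate 2 gave 0.26 (95% interval 0.043 to 0.48, adjusted p = 0.189 from edgeR). Limma with sample quality weights, which gives libraries that stand apart less weight, gave 0.30 with an adjusted p of 0.0280, past the threshold. Over 15 alternatives the adjusted p of *Fn1* ran from 0.0280 to 0.675, and this was the sole call of any member. Across these the log2 fold change stayed between 0.26 and 0.49.

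*Zeb1* (ENSMUSG00000024238, chr18:5591860-5775467, plus strand) encodes a repressor of epithelial genes. It was at 42.5, 43.1 and 41.5 CPM in the controls, against 40.0, 40.7 and 40.9 CPM with knockdown. The knockdown samples were all below the controls, by a small margin. The mean was 42.4 ± 0.848 CPM (SD, n = 3) against 40.6 ± 0.467 CPM (SD, n = 3). The log2 fold change of -0.063 (95% interval -0.22 to 0.10) had an adjusted p of 0.637 from edgeR with Benjamini-Hochberg adjustment, and was -0.060 without Ctrl shRNA replicate 2 (adjusted p = 0.678 from edgeR). With scaling to library size only it was 0.11, below the median of 0.16 of all genes under that scaling. Its paralog *Zeb2*, which also encodes a repressor of epithelial genes and is named here after its values were seen, was at 21.7, 20.6 and 19.8 CPM in the controls, against 27, 28.9 and 25.2 CPM with knockdown. The *Zeb2* groups did not overlap, with all knockdown samples above all controls. Its log2 fold change was 0.39 (95% interval 0.16 to 0.61, adjusted p = 0.256 from edgeR with Benjamini-Hochberg adjustment), and 0.37 without Ctrl shRNA replicate 2 (adjusted p = 0.10 from edgeR). *Zeb2* passed under 2 of 15 alternatives, DESeq2 without that library (adjusted p = 0.0390) and limma with sample quality weights (adjusted p = 0.0155), and the highest adjusted p was 0.675.

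*Snai2* (ENSMUSG00000022676, chr16:14705852-14709385, plus strand), which encodes SLUG, was near the counting limit. It had 9, 0 and 12 counts in the controls and 6, 13 and 11 in the knockdown samples, or 0.291, 0 and 0.418 CPM and 0.202, 0.428 and 0.371 CPM. The groups overlapped apart from the 0 of Ctrl shRNA replicate 2. The log2 fold change of 0.42 spanned a 95% interval of -1.74 to 2.57 (adjusted p = 0.831 from edgeR with Benjamini-Hochberg adjustment). With Ctrl shRNA replicate 2 left out it was -0.089 (adjusted p = 0.942 from edgeR).

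**Figure D4:**
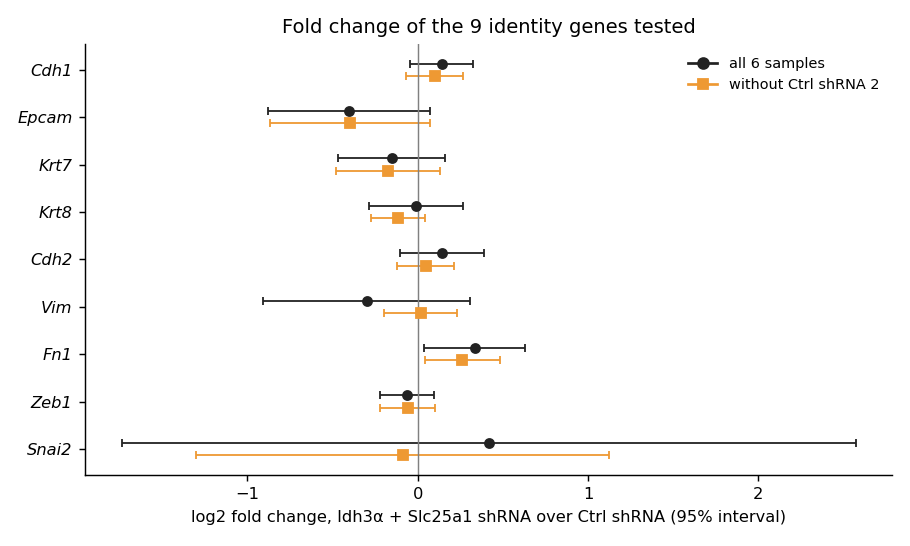
Log2 fold change of Idh3α shRNA + Slc25a1 shRNA over Ctrl shRNA for the 9 tested members, with 95% intervals from edgeR, for all 6 samples (black circles) and without Ctrl shRNA replicate 2 (orange squares). The intervals of *Fn1* lie above 0 in both fits before adjustment, all others include 0, and *Vim* and *Snai2* cross to the other side of 0 without that library.

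The position of the control library that stood apart differed from gene to gene. Ctrl shRNA replicate 2 was below all other 5 samples for 6 members (*Cdh1*, *Krt8*, *Krt18*, *Cdh2*, *Fn1* and *Snai2*), above them for 2 (*Vim* and *Zeb1*) and within their range for *Epcam* and *Krt7*. Against the mean of the other controls, its log2 difference was 0.82 for *Vim*, -0.32 for *Krt8*, -0.29 for *Cdh2* and -0.20 for *Fn1*. For *Vim*, *Krt8* and *Cdh2* these exceeded, in size, the log2 fold change between the groups without that library, which was 0.017, -0.12 and 0.046. What set this library apart was not tested.

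Genes whose values followed those of *Cdh1* and *Vim* most closely were sought among 15306 genes, by the Euclidean distance between log2 CPM values centered on their mean over the 6 samples. Nearest to *Cdh1* were *Mta2* (distance 0.0632), *Becn1* (0.0703) and *Ugcg* (0.0736). Nearest to *Vim* were *Cep19* (0.0744), *Cd164* (0.0872) and *Isca1* (0.108). *Cd164*, for example, was at 355, 631 and 346 CPM in the controls, against 346, 401 and 336 CPM with knockdown. The *Vim* neighbors thus shared its high value in Ctrl shRNA replicate 2, and over 6 samples such closeness is a description only.

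The wider epithelial program was examined with a list of 52 other genes of junctions, keratins and epithelial regulators. In controls, 31 of them had a mean of at least 1 CPM, and 3 had 0 counts in every library. Of 35 tested genes, 24 had a positive and 11 a negative log2 fold change, with a median of 0.14 beside -0.0092 over all genes. By edgeR with Benjamini-Hochberg adjustment 0 passed in either direction, beside 0.0653% of all genes. Before adjustment, 3 higher genes and 1 lower gene had a p under 0.05, where 14.1% of all genes did. With that library left out, 22 of 37 were positive with a median of 0.052, and again 0 passed, beside 1.79% (4 higher and 2 lower unadjusted, where 19.9% of all genes were).

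Non-overlapping groups were seen for 8 higher and 3 lower genes among those tested, beside 14.7% and 10.7% of all genes. Leaving out Ctrl shRNA replicate 2 gave 9 and 5, beside 20.3% and 17.3%. *Krt14*, a basal cell keratin, was at 0.808, 0.911 and 0.906 CPM in the controls, against 1.61, 2.21 and 1.82 CPM with knockdown. Its log2 fold change was 1.10 (95% interval 0.47 to 1.74, and 1.12 without Ctrl shRNA replicate 2), and it passed with DESeq2 (adjusted p = 0.0415) but not with edgeR (adjusted p = 0.256, both Benjamini-Hochberg). Over 14 alternatives its adjusted p ran from 0.0326 to 0.675. The next genes named belong to tight junctions and were picked by the size of their log2 fold change among genes without overlap. Other tested tight junction genes of the list had values from -0.069 to 0.63, the highest with overlapping groups. *Lsr*, which encodes the tricellular junction protein angulin, had a log2 fold change of 0.60 (0.43 without Ctrl shRNA replicate 2). Without that library *Lsr* passed with DESeq2 (0.44, adjusted p = 0.0472), and it was then the only gene of this list to do so. *Cgn*, which encodes cingulin, was at 22.4, 14.7 and 17.7 CPM in the controls, against 23.1, 23.6 and 23.2 CPM with knockdown, with a log2 fold change of 0.35 (0.21 without that library, in which it was lowest). *Marveld2*, which encodes tricellulin, had -0.23 (-0.30 without that library). The adhesion genes *Nectin1* and *Dsg2* had 0.47 and 0.40 (0.36 and 0.40 without that library). The polarity gene *Crb3* had -0.43, and *Evpl*, which encodes the cornified envelope protein envoplakin, had -0.14 (-0.40 and -0.17 without that library). Over 15 alternatives the value of *Evpl* ran from -0.17 to 0.026. None of these passed in edgeR with Benjamini-Hochberg adjustment, with or without that library.

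A list of 50 other mesenchymal and EMT genes was treated likewise. In controls, 32 had a mean of at least 1 CPM, and 5 had 0 counts in every library. Of 36 tested genes, 23 had a positive and 13 a negative log2 fold change, with a median of 0.10. By edgeR with Benjamini-Hochberg adjustment 0 passed with all samples, beside 0.0653% of all genes. Before adjustment, 9 higher and 3 lower genes had a p under 0.05, where 14.1% of all genes did. Without Ctrl shRNA replicate 2 the median was 0.061, 2 genes passed as higher and 1 as lower, where 1.11% and 0.675% of all genes did. *Cd44*, which encodes the hyaluronan receptor, was at 54.5, 51.2 and 48.3 CPM in the controls, against 79.5, 91.6 and 80.7 CPM with knockdown. *Tnc*, which encodes the matrix protein tenascin C, was at 16.5, 11.5 and 13.3 CPM and at 25.7, 23.9 and 26.6 CPM. Both were separate between the groups and rose without that library, by log2 fold changes of 0.70 (adjusted p = 0.0142 from edgeR) and 0.76 (adjusted p = 0.0209 from edgeR). *Itgb3*, which encodes the integrin beta-3 chain, was at 32.7, 30.2 and 27.7 CPM and at 20.4, 17.8 and 20.1 CPM. It fell without that library, with a log2 fold change of -0.65 (adjusted p = 0.0274 from edgeR). With all samples the adjusted p of these genes was 0.108, 0.178 and 0.174 from edgeR, and DESeq2 called all 3. Over 15 alternatives, 4 called each of them, and the highest adjusted p was 0.637 for *Cd44* and 0.675 for *Tnc* and *Itgb3*.

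Of the tested genes of this list, 11 were higher and 2 lower without overlap between the groups, beside 14.7% and 10.7% of all genes. Leaving out Ctrl shRNA replicate 2 gave 12 and 6, beside 20.3% and 17.3%. Besides *Cd44*, *Tnc* and *Itgb3*, these included *Tagln*, a smooth muscle actin-binding protein gene, with a log2 fold change of 0.87 (95% interval 0.0047 to 1.73) at under 1 CPM in every sample, and 0.70 (-0.16 to 1.56) without Ctrl shRNA replicate 2. They also included *Fbn1*, which encodes the matrix protein fibrillin, with 0.83. *Fbn1* was at 4.46, 0.304 and 4.50 CPM in the controls, against 5.44, 5.31 and 6.00 CPM with knockdown, and without Ctrl shRNA replicate 2 its log2 fold change was 0.31. The transcription factor gene *Twist2* had 0.57 (0.42 without that library). *Itgb6*, whose integrin is typical of epithelium, had -0.61 (-0.49 without that library). None of these passed in edgeR with Benjamini-Hochberg adjustment in either fit.

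**Figure D5:**
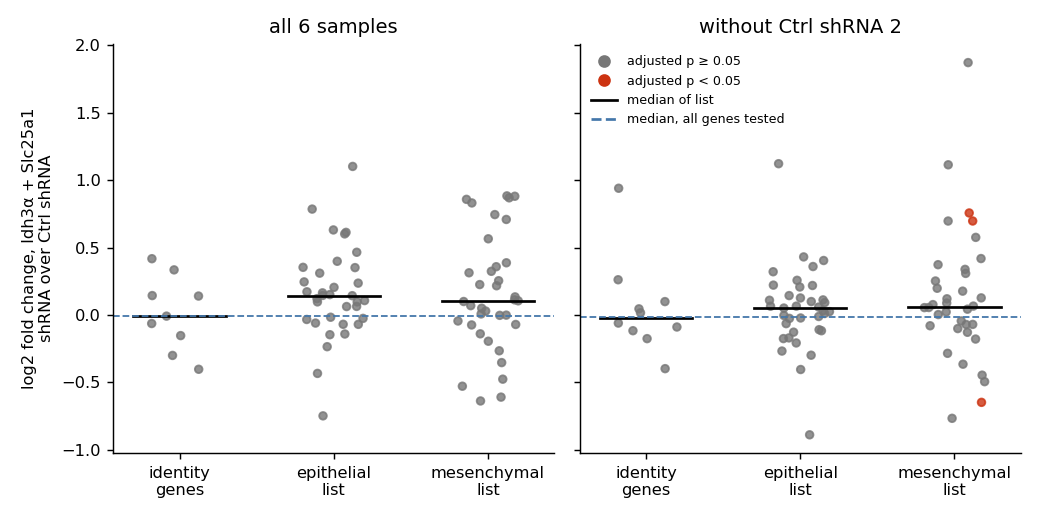
Log2 fold change of Idh3α shRNA + Slc25a1 shRNA over Ctrl shRNA for each tested gene of the 10 identity genes, the epithelial list and the mesenchymal list, with all 6 samples (left) and without Ctrl shRNA replicate 2 (right). Black bars are list medians, the dashed line is the median of all genes tested, and red points passed an adjusted p of 0.05 in edgeR. Red points appear only on the right, where *Cd44* and *Tnc* are higher and *Itgb3* is lower.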

How the data were processed

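Total RNA of 6 MLE12 samples underwent paired-end Illumina RNA-seq. From these reads the authors deposited whole-number counts per gene, not normalized, and FPKM values. The latter equal the counts per gene length and per a library size that was 0.716 to 1.08 times the total count. The submitters' processing notes name HISAT2 2.0.5, StringTie 1.3.3b, featureCounts 1.5.0-p3 and mm10, with no role for each tool. Use of strand and treatment of multi-mapped reads are not given in the sources used here. Antisense or other genes overlap *Krt7*, *Krt8*, *Cdh2*, *Fn1* and *Zeb1* on the opposite strand, the most counted being *Gm36026* at *Krt8* with 60 to 122 counts. Of 54409 genes also in GENCODE M21, 98.3% had the same coordinates, so GRCm38 is used. *Epcam* alone of the members had other coordinates there. 0 columns of sample values were left unused.

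Groups and replicate numbers came from the labels. Members were matched by gene name. Counts were filtered with filterByExpr, scaled by TMM and tested over all genes with edgeR 4.0.16 (quasi-likelihood, two-sided, no covariate, R 4.3.3) at a Benjamini-Hochberg adjusted p under 0.05. Alternatives were other scalings and filters, the replicate number as a block, DESeq2 1.42.0, limma 3.58.1 on voom values with sample quality weights or on log2(FPKM + 1), and each library left out. Exact permutation tests and Poisson intervals used scipy 1.17.1, and figures matplotlib 3.10.9. The scripts were tested on simulated data. Replicates differed by more than sampling noise (chi-square per degree of freedom at least 5.67), and each was counted once. Same-numbered samples were not treated as pairs, as the labels name no pairing. Their correlations of deviations were -0.155, -0.0920 and 0.0430, against -0.0392 to 0.146 for samples of unlike number. With so few samples per group these values cannot decide whether samples were paired.

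The members, gene lists and marker lists were chosen with earlier results of these data known. The text names all members, the targeted genes, list genes past the edgeR threshold with or without Ctrl shRNA replicate 2, and up to 5 per list and direction with the largest log2 fold change among genes whose groups do not overlap. It also names the 3 nearest profiles of *Cdh1* and *Vim*. *Krt19*, *Krt80*, *Cdh24* and *Zeb2* were named after their values were seen. Some items are not reported here.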

Additional observations from a re-analysis of the deposited data

How the results depend on the processing

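Of 134 member fold changes under alternatives, 118 kept their sign and their side of the threshold, 15 turned sign and 1 (*Fn1*, sample quality weights) passed it. *Krt8* turned to 0.14 with library size only, 0.00091 without a filter, 0.00050 with FPKM, and 0.019, 0.059, 0.0077 and 0.0096 without Ctrl shRNA 1, Ctrl shRNA 3, knockdown 2 or knockdown 3 (range with 1 library left out -0.12 to 0.059). *Krt7* turned to 0.017 and *Zeb1* to 0.11 with library size only, which moved the median of all genes to 0.16. Under sample weights, without Ctrl shRNA 2 and with DESeq2 without it, *Vim* turned to 0.018, 0.017 and 0.023, and *Snai2* to -0.38, -0.089 and -0.086. With 1 library left out they ran from -0.48 to 0.017 and from -0.089 to 1.01. Over all genes, 9 were higher and 1 lower. Library size only gave 1 and 0, no filter 3 lower, FPKM 3 lower, DESeq2 214 and 139, sample weights 1327 and 971, leaving out 1 library 0 to 175 and 0 to 106, and DESeq2 without Ctrl shRNA 2 gave 492 and 332. Higher members numbered 1 with sample weights. For the epithelial list, DESeq2 gave 1 higher with all samples (*Krt14*) and 1, a different gene (*Lsr*), without Ctrl shRNA 2, and sample weights 5 higher and 1 lower. For the mesenchymal list, DESeq2 gave 2 higher and 1 lower, sample weights 6 and 3, leaving out 1 library 0 to 2 and 0 to 1 (the highest without Ctrl shRNA 2), and DESeq2 without that library 3 (*Cd44*, *Tnc* and *Zeb2*) and 1. The causes were not tested. The replicate block gave 0 higher and 0 lower genes and called no member. The labels do not say whether same-numbered samples belong together. With coding transcript length, chosen after seeing the data, control levels per kilobase were 384 (*Vim*), 55.0 (*Fn1*), 9.88 (*Cdh2*), 7.30 (*Zeb1*) and 2.24 (*Krt7*). *Krt18* and *Snai2* had 0 to 16 counts per library.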

Other observations

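Several epithelial regulators outside the member list had clear levels in these cells. *Foxa1*, *Foxa2* and *Gata6*, transcription factor genes of lung endoderm, were at 55.2 to 72.2, 59.5 to 77.3 and 136 to 160 CPM over the 6 samples. Of the 4 mesothelial genes, 3 were separate between the groups, in both directions, and *Wt1* overlapped (10.1 to 12.5 against 10.6 to 13.7 CPM). *Upk3b* was at 136 to 181 against 209 to 227 CPM and *Lrrn4* at 5.65 to 9.62 against 10.7 to 11.7 CPM, while *Msln* was at 291 to 329 against 271 to 283 CPM. Such separation was seen for 14.7% of all genes tested in the higher and 10.7% in the lower direction. These genes were picked from the marker lists after their values were seen and are given as values, with no test.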
